A study of Mus musculus with 3 samples.

Results

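The genes described here are 3 metallothioneins, Mt1, Mt2 and Mt3, the zinc-sensing transcription factor gene Mtf1 and 3 zinc transporter genes, Slc30a1, Slc39a1 and Slc39a7. They are the 7 rows of the deposited gene table, of 24067, that carry these symbols. The set was picked with the values in view, because Mt3 was low only in the sheared control library. The Mt3 values that set this choice are therefore a description and support nothing.

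RNA came from primary mouse bone cells grown as pre-osteoclasts, cells with 1 nucleus that stain for tartrate-resistant acid phosphatase and can go on to fuse into osteoclasts. All 3 libraries came from cells carrying an shRNA and given MCSF and RANKL for 2 days to start differentiation. The static control library came from wild-type cells with control shRNA and no further treatment. The sheared control library came from wild-type cells with control shRNA and 24 hours of orbital shear stress, fluid flow made by swirling the dish. The sheared Ift88 shRNA library came from cells with the same 24 hours of shear in which Ift88, a gene of the intraflagellar transport machinery of the cilium, was knocked down. Each group was 1 library, with no replicate, and a static Ift88 shRNA group was not analysed here, so what the knockdown does with and without shear cannot be told apart. The labels give no strain, age or sex of the animals, no means of delivering the shRNA and no word on pooling.

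Metallothioneins are small cytosolic proteins whose many cysteines bind zinc and copper, and they buffer free zinc. MTF1 binds metal response elements in promoters when zinc is high and switches on metallothionein genes and Slc30a1. Transporters of the SLC30 family move zinc out of the cytosol, and those of the SLC39 family move it in. Mt1 and Mt2 are made in most tissues and respond to metals, glucocorticoids and oxidative stress, whereas Mt3 is best known from the brain.

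Estimated depth was 34900000 fragments for the static control library, 35320000 for the sheared control and 35240000 for the sheared Ift88 shRNA library. Levels are FPKM, fragments per kilobase of transcript relative to the mapped fragments of the library, which allow comparison between genes per length. A gene counts as past 1.2-fold when the ratio of (FPKM + 1) between libraries reaches that size, among the 10358 genes with a mean of at least 1 FPKM. All 7 members passed that filter. Ratios printed beside a gene are of FPKM itself, with 95% counting intervals that leave out the variation between cultures. No p-value is possible, and every difference is between single libraries. Ift88 was at 2.98 FPKM in the static control, 2.71 in the sheared control and 1.197 in the Ift88 shRNA library, lower where the label says. Of the markers of the labelled cell type, 8 of 10 osteoclast-lineage and 7 of 7 macrophage genes passed the filter, among them Csf1r at 248, 251 and 272 FPKM in the static control, sheared control and Ift88 shRNA libraries.

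The levels spanned a wide range. Mt1, the most abundant, ranked 226th, 217th and 178th of all genes in the static control, sheared control and Ift88 shRNA libraries. Slc39a7, Mt2 and Slc39a1 lay between 83.9 and 127 FPKM, Slc30a1 near 20, and Mt3 and Mtf1 at a few FPKM. Slc39a7 stood above Mt2 in every library, whereas Slc39a1 and Mt2 differed by less than 1.1-fold in both control libraries.

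**Figure D1:**
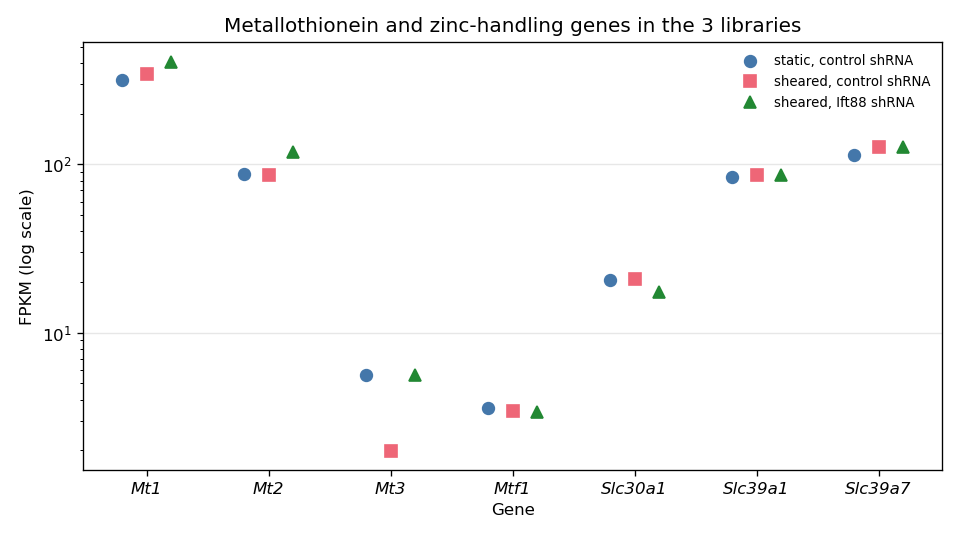
FPKM on a log axis for the 7 genes, with 1 point for each library. Mt3 is at 1.99 FPKM in the sheared control and above 5 in the other 2 libraries, and Mt1 and Mt2 are highest in the Ift88 shRNA library.

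The metallothionein genes sit together on mouse chromosome 8 in the order Mt4, Mt3, Mt2, Mt1, all on the plus strand (GRCm38, RefSeq). Mt3 (gene ID 17751) spans 94152607 to 94154148, Mt2 (17750) 94172618 to 94173567 and Mt1 (17748) 94178883 to 94180327. Each matched transcript has 3 exons. The coding sequences of Mt1 and Mt2 hold 61 codons and that of Mt3 holds 68, and each has 20 in-frame TGC or TGT codons, which encode cysteine. In coding sequence, Mt1 and Mt2 were identical at 79.6% of 186 aligned positions, Mt1 and Mt3 at 66.2% of 207 and Mt2 and Mt3 at 67.6%. The longest exact run shared by any pair of the 3 transcripts was 27 bases, between Mt1 and Mt3, so a longer read that matches exactly has 1 origin among them. Mt4 was listed at 0 FPKM in all 3 libraries.

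The 250 bases before the transcript start that the RefSeq promoter table uses are shown for Mt1, Mt2, Mt3 and Slc30a1, because MTF1 acts on such promoters and these genes took different courses below. The sequences are RefSeq's for GRCm38.p6, 5′ to 3′ on the gene's plus strand, at chr8:94178839-94179088 for Mt1, chr8:94172368-94172617 for Mt2, chr8:94152357-94152606 for Mt3 and chr1:191906531-191906780 for Slc30a1. The table's start is 94179089 for Mt1 and 191906781 for Slc30a1. Both lie inside the gene spans given here, which begin further upstream, so these 2 stretches overlap the spans. Capitals mark matches to the metal response element core, searched as TGCACNC and TGCGCNC on both strands.
Mt1: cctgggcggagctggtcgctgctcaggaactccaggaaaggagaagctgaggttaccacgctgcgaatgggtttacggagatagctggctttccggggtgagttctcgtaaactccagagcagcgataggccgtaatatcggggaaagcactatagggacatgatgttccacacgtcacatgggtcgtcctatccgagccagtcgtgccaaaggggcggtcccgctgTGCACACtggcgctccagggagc
Mt2: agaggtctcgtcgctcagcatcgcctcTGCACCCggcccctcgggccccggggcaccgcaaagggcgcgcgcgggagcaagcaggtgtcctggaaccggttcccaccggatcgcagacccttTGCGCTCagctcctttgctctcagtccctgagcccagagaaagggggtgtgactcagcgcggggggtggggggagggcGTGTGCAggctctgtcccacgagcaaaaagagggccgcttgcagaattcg
Mt3: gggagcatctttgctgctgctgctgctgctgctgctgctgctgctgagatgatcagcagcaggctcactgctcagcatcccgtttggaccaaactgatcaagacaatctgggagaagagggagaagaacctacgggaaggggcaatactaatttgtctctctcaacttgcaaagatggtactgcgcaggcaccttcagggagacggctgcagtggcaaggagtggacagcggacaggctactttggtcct
Slc30a1: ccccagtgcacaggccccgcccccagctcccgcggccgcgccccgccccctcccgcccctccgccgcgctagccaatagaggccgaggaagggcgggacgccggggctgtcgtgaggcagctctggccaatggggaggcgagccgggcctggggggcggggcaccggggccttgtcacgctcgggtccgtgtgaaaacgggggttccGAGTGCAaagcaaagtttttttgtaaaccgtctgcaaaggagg

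Mt2 had 3 matches in these windows, Mt1 and Slc30a1 had 1 each, and Mt3 had none. Over all 27025 genes of the promoter table, 23.8% had at least 1 match in the same 250 bases and 1.46% had at least 3. Counting the next 50 bases as well, there were 4 matches at Mt2, 3 at Mt1, 2 at Slc30a1 and 1 at Mt3. Mtf1, Slc39a1 and Slc39a7 had no match in either window. The antioxidant response element core, searched as TGACNNNGC on both strands, had 1 match each at Mt2, Slc30a1 and Slc39a1 and none at the other members, where 11.5% of genes had at least 1. The GC box GGGCGG, on both strands, had 5 matches before Slc30a1, 2 before Mt1 and none before Mt2 or Mt3, where 35.4% of genes had at least 1. No metal response element match overlapped a match to the other motifs in the printed stretches. The TATA box TATAAA, on both strands, had no match at any member in either window, where 14.3% of genes had at least 1 in the 250 bases. All counts depend on the start that the promoter table uses, so they give no ranking of control by MTF1. GENCODE, for example, starts Mt2 further downstream, at 94172664. Sequence beyond the windows was not searched, so a count of none does not show that a promoter lacks the motif. These matches are letters in a window, not measured binding.

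Mt3 was the outlying member. Its level was 5.63 FPKM in the static control, 1.99 in the sheared control and 5.57 with Ift88 shRNA. The sheared control stood alone at the low end, and the static control and Ift88 shRNA libraries were level with each other. Behind them were about 68, 24 and 68 fragments, by estimate. The ratio of sheared to static control was 0.354 (0.209 to 0.563), that of Ift88 shRNA to sheared control 2.79 (1.76 to 4.73), and that of Ift88 shRNA to static control 0.989 (0.697 to 1.41). Both of the first ratios use the sheared control library, so a low value there sets both directions at once. Fewer cells that express a gene and less RNA per cell cannot be told apart in RNA from whole cultures, here or for the other members.

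In the shear comparison Mt3 was the only member past 1.2-fold, and it was past 2-fold as well. Over all genes, 4.2% were past 1.2-fold and 0.28% past 2-fold. Among the 462 genes with 80 to 320 estimated fragments over the 3 libraries, a range of large counting error that holds Mt3, 17.1% were past 1.2-fold and 1.08% past 2-fold. Of all 10358 genes, 12 were lower than Mt3 in the shear comparison and 5 were higher than Mt3 in the knockdown comparison. Mt3 made up 1.37% of the summed metallothionein FPKM in the static control, 0.463% in the sheared control and 1.05% in the Ift88 shRNA library.

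**Figure D2:**
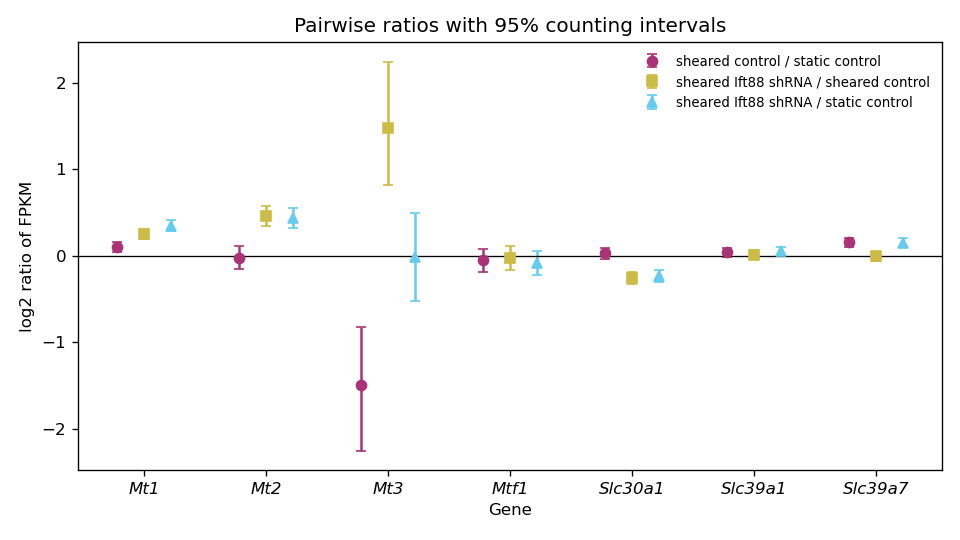
Log2 ratio of FPKM for each gene in the 3 pairwise comparisons, with 95% counting intervals. The Mt3 intervals are the widest, and for Mt1 and Mt2 the ratios of Ift88 shRNA to each control library lie above 0 while Slc30a1 lies below it.

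Mt1 and Mt2 did not share the low value of Mt3 in the sheared control. Mt1 was at 319 FPKM in the static control, 342 in the sheared control and 406 in the Ift88 shRNA library. Mt2 was at 87.4, 86.0 and 118 FPKM in the same order. Both were highest with Ift88 shRNA, and the 2 control libraries lay close together. The sheared-to-static ratio was 1.07 for Mt1 (1.03 to 1.12) and 0.984 for Mt2 (0.900 to 1.08), the latter with an interval that includes no difference.

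With Ift88 shRNA, the ratio to the sheared control was 1.37 for Mt2 (1.26 to 1.49) and 1.19 for Mt1 (1.14 to 1.24). Those intervals do not overlap, and the ratio of Mt1 to Mt2 was 3.65 in the static control, 3.98 in the sheared control and 3.44 in the Ift88 shRNA library. Against the static control, Ift88 shRNA cells stood at 1.27 times for Mt1 (1.22 to 1.33) and 1.35 times for Mt2 (1.24 to 1.47). The knockdown comparison and this one share the Ift88 shRNA library. The summed FPKM of the 3 metallothioneins was 412 in the static control, 430.0 in the sheared control and 529.7 in the Ift88 shRNA library, of which Mt1 was by far the main part.

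In the knockdown comparison 2 of the 7 members, Mt2 and Mt3, were past 1.2-fold, both higher, where 5.54% of all genes were past it and 3.25% were past it on the higher side. Mt3 alone was past 2-fold, where 0.145% of all genes were. Mt1 stayed just short, with a fold of 1.19 on the (FPKM + 1) scale, and passed when each library was scaled to the same FPKM total. That scaling moved the median over all genes in this comparison from 0.010 to 0.039 log2. Of all 10358 genes, 65 had a higher ratio than Mt2 and 409 a higher ratio than Mt1. Among the 6268 genes with at least 2000 estimated fragments, a range that holds Mt1 and Mt2, 1.93% were past 1.2-fold on the higher side. In the comparison of Ift88 shRNA with static control, Mt1 and Mt2 were the members past 1.2-fold, both higher, beside 9.27% of all genes in either direction and 4.79% on the higher side. GENCODE places an antisense gene, Gm45774, over part of Mt2, and the sources used here do not say whether counting used strand, so reads of that gene could be part of the Mt2 value.

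**Figure D3:**
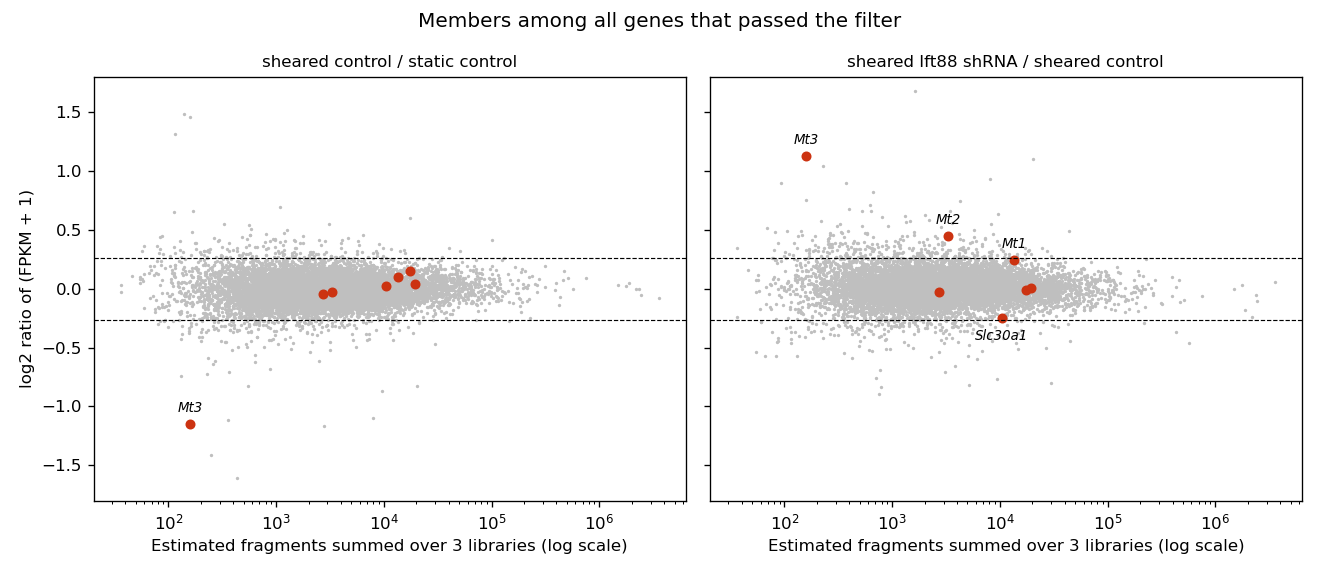
Log2 ratio of (FPKM + 1) against estimated fragments summed over the 3 libraries (log axis), for the shear comparison on the left and the knockdown comparison on the right. Grey points are genes that passed the filter and have a transcript over 500 bases, apart from 3 outside the axis range, red points are the 7 members, and dashed lines mark 1.2-fold; Mt3 lies among the genes with few fragments, where the grey cloud is widest.

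Mtf1, which encodes the zinc sensor, was nearly level. It was at 3.58 FPKM in the static control, 3.45 in the sheared control and 3.38 in the Ift88 shRNA library, on an estimated 931, 906 and 886 fragments. The ratio was 0.962 for shear (0.877 to 1.05), 0.980 for the knockdown (0.892 to 1.08) and 0.942 for Ift88 shRNA against static control (0.859 to 1.03), and each interval includes no difference. Mtf1 (gene ID 17764) lies on chromosome 4 at 124802549 to 124849800, with 11 exons in the matched transcript. It overlaps an opposite-strand gene, 1110065P20Rik, which was at 7.22, 6.60 and 8.07 FPKM in the static control, sheared control and Ift88 shRNA libraries. RNA levels do not show the nuclear entry or metal binding through which MTF1 acts.

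Slc30a1, which encodes the zinc exporter ZnT1 of the plasma membrane, went the other way from Mt1 and Mt2 with Ift88 shRNA. It was at 20.5 FPKM in the static control, 20.9 in the sheared control and 17.4 in the Ift88 shRNA library. The Ift88 shRNA library was the low one and the 2 control libraries were level. The ratio to the sheared control was 0.833 (0.794 to 0.874) and that to the static control 0.848 (0.808 to 0.890), while shear gave 1.02 (0.972 to 1.07). On the (FPKM + 1) scale the knockdown difference was -0.25 log2, short of 1.2-fold, and 280 of the 10358 genes were lower. Under median-of-ratios scaling it passed, at -0.27. Slc30a1 (gene ID 22782) lies on chromosome 1 at 191906697 to 191913248, and an antisense gene that overlaps it, 1700034H15Rik, was at 0.287, 0.278 and 0.245 FPKM.

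Slc39a1 varied least of the 7 members. This gene, which encodes the plasma membrane importer ZIP1 (gene ID 30791, chromosome 3, 90248190 to 90253613), was at 83.9 FPKM in the static control, 86.1 in the sheared control and 86.7 in the Ift88 shRNA library. Its highest level was 1.03 times its lowest, where the figure was 1.06 for Mtf1 and 1.11 for Slc39a7. Slc39a7 encodes ZIP7, which releases zinc from the endoplasmic reticulum and Golgi into the cytosol (gene ID 14977, chromosome 17, 34028266 to 34031690). It was at 114 FPKM in the static control, 127 in the sheared control and 126 in the Ift88 shRNA library. Both sheared libraries were above the static one, with a shear ratio of 1.11 (1.07 to 1.15), and they were level with each other, with a knockdown ratio of 0.995 (0.960 to 1.03). The shear difference of Slc39a7 was 0.15 log2, and 872 of the 10358 genes were higher. The ratio of Slc39a1 to Slc30a1, 1 importer gene to 1 exporter gene, was 4.09 in the static control, 4.13 in the sheared control and 4.99 in the Ift88 shRNA library. Its higher value there follows the lower Slc30a1, since Slc39a1 was nearly level. Summed over whole families in the same order, SLC39 genes stood at 328, 340 and 343 FPKM and SLC30 genes at 79.5, 78.1 and 73.6. The SLC30 difference between the sheared libraries lay mostly in Slc30a1.

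Over the 7 members, 4 were higher and 3 lower in each of the 3 comparisons. Their median log2 ratio was 0.024 for shear, 0.010 for the knockdown and 0.048 for Ift88 shRNA against static control. The medians over all genes were -0.011, 0.010 and -0.00030. The members had no common direction.

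The wider zinc transporter families were followed as whole families. Of the 24 SLC30 and SLC39 genes, 17 passed the filter, and 3 (Slc30a2, Slc30a3 and Slc39a5) were listed at 0 in every library. None of the 17 was past 1.2-fold in any of the 3 comparisons. Of all genes, 4.2% were past it for shear, 5.54% for the knockdown and 9.27% for Ift88 shRNA against static control. The ratios of the 17 ran from -0.18 to 0.15 log2 for shear, from -0.25 to 0.17 for the knockdown and from -0.24 to 0.25 for Ift88 shRNA against static control. Median ratios were -0.017, -0.0067 and -0.056. The count of none holds on the (FPKM + 1) scale. On FPKM itself, Slc39a4 was at 1.28 for Ift88 shRNA against static control (1.06 to 1.54) and Slc30a1 at 0.833 for the knockdown (0.794 to 0.874).

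The exporter and importer genes were counted separately. With Ift88 shRNA, 5 of the 6 SLC30 genes were lower than in the sheared control and 6 of 6 lower than in the static control, with medians of -0.054 and -0.074. Most of these differences were small. Among the SLC30 genes, only Slc30a1 had a knockdown interval that leaves out no difference, and Slc30a4, counted as lower, was at 0.999 (0.840 to 1.19). Against the static control, only Slc30a1 and Slc30a7 (0.936, 0.880 to 0.995) had such an interval. Of all 10358 genes, 46.4% were lower in the first of these comparisons and 50.1% in the second. Of the 11 SLC39 genes, 6 were higher and 5 lower in both comparisons. The difference between the exporter and importer counts was not tested. Slc30a1 had the lowest knockdown ratio of the 17. Slc39a10, an importer gene, came next, at 11.9 FPKM in the static control, 11.2 in the sheared control and 9.93 in the Ift88 shRNA library. The importer genes Slc39a4 (2.26, 2.44 and 2.88 FPKM) and Slc39a11 (27.9, 29.6 and 32.6) were lowest in the static control and highest with Ift88 shRNA. Slc39a10, Slc39a4 and Slc39a11 were chosen after their values were seen.

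**Figure D4:**
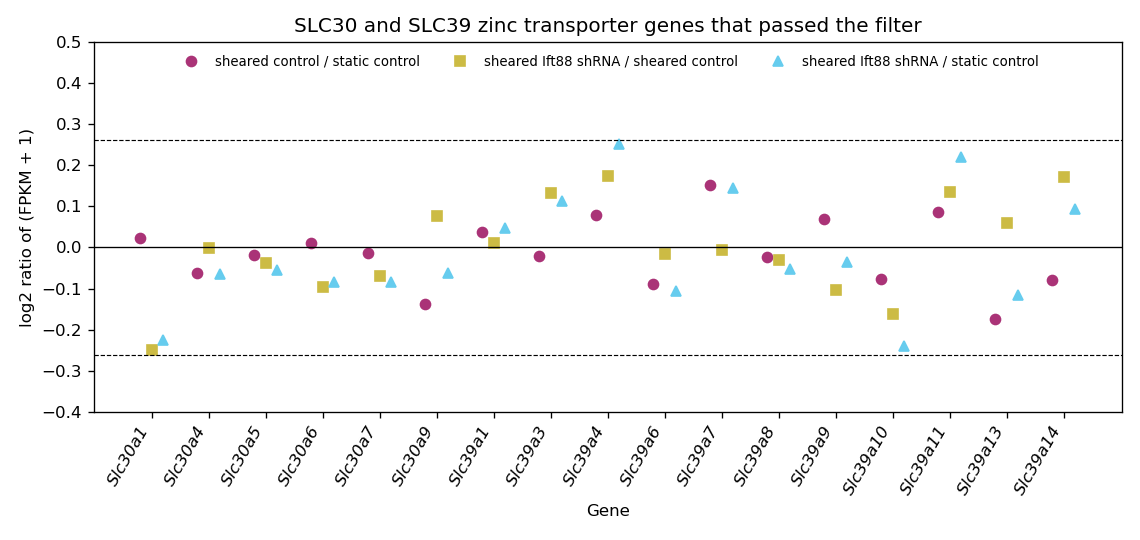
Log2 ratio of (FPKM + 1) for the 17 zinc transporter genes that passed the filter, in the 3 pairwise comparisons. All points lie inside the dashed lines at 1.2-fold, and the lowest knockdown ratio is that of Slc30a1.

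Genes known to respond to the stimuli that induce metallothioneins were followed as lists. Of the 10 oxidative stress genes, 9 were higher in sheared than in static control cells, with a median of 0.09 log2, where 46.0% of all genes were higher. With Ift88 shRNA, 7 were higher than in the sheared control, with a median of 0.10, where 53.6% of all genes were higher. Against static control, 9 of 10 were higher with Ift88 shRNA (median 0.19), where 49.8% of all genes were higher. In this comparison 3 were past 1.2-fold on the higher side, where 4.79% of all genes were. These were Nqo1, a quinone reductase gene, at 2.85, 4.28 and 4.89 FPKM in the static control, sheared control and Ift88 shRNA libraries, Gclm, a subunit of the glutathione-synthesising ligase, at 31.9, 38.3 and 41.4, and Slc7a11, a cystine transporter gene, at 3.89, 3.98 and 5.14. Hmox1, which encodes heme oxygenase, was highest in the sheared control, at 337, 396 and 360 FPKM, and was picked after its values were seen. Against the sheared control, 3 of the 10 were lower with Ift88 shRNA and Slc7a11 was the 1 past 1.2-fold. Slc7a11 was higher, and 3.25% of all genes were past 1.2-fold on that side. In the shear comparison Nqo1 was the 1 past 1.2-fold, where 4.2% of all genes were past it in either direction.

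Glucocorticoid-responsive genes had medians of -0.03 for shear, -0.02 for the knockdown and -0.05 for Ift88 shRNA against static control over 7 genes. In that list only Nfkbia, an inhibitor of NF-kappaB, was past 1.2-fold, at 34.8, 30.4 and 39.0 FPKM. Heat shock genes had medians of -0.06, 0.06 and -0.03 over 9 genes, with only Hsph1, a chaperone gene, past 1.2-fold, at 18.5, 16.0 and 14.4 FPKM. The copper-handling list also holds Mtf2, which is not a copper-handling gene. The 11 genes of that list that passed the filter, Mtf2 included, had medians of -0.03, -0.0053 and 0.01, and none was past 1.2-fold. Of all genes, 4.2% were past it for shear, 5.54% for the knockdown and 9.27% for Ift88 shRNA against static control.

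Other cell types could carry metallothionein RNA, so their markers are given beside the Mt3 values. Of the 10 neuron and astrocyte markers, Gfap, Aqp4 and Slc1a3 were listed at 0 in every library, and 1 passed the filter. That was Aldoc, a glycolytic aldolase gene, at 3.79, 3.90 and 5.20 FPKM in the static control, sheared control and Ift88 shRNA libraries. The summed level of the list was 4.34, 4.49 and 5.84 FPKM, with no low value in the sheared control. Of the 5 lymphoid markers none passed the filter, and Cd3e and Ms4a1 were listed at 0 throughout.

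Neutrophil markers summed to 68.5 FPKM in the static control, 35.2 in the sheared control and 37.1 in the Ift88 shRNA library, over 8 genes of which 4 passed the filter. They were low in both sheared libraries, whereas Mt3 was low in 1 of them. Stromal markers, with 3 of 9 passing the filter, summed to 7.90, 5.93 and 7.29 FPKM, lowest in the sheared control as Mt3 was. The low sum lay mostly in the collagen genes Col1a1 (2.80, 1.76 and 2.52 FPKM) and Col1a2 (2.69, 1.74 and 2.30). Runx2, which also passed, was nearly level at 1.74, 1.63 and 1.70. Below the filter the markers did not share a course, and Pdgfrb was highest in the sheared control, at 0.453, 0.552 and 0.429. The 10 osteoclast-lineage markers summed to 623, 550.2 and 599 FPKM and the 7 macrophage markers to 2322, 2280 and 2301. These sums were also lowest in the sheared control, but single markers differed. Of the 8 osteoclast-lineage markers that passed the filter, 6 were lower and 2 higher under shear, and 7 were higher and 1 lower in the knockdown comparison. Of the 7 macrophage markers, 6 were lower and 1 higher under shear, and 4 were higher and 3 lower in the knockdown comparison. The macrophage marker Cd68 was highest in the sheared control, at 1787, 1799 and 1783 FPKM. The part of these markers in the Mt3 values was not tested.

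The genes around the metallothionein cluster were compared to see whether the low value of Mt3 extended along the chromosome. Of 9 genes of the table near the cluster, 5 passed the filter, and none of these was past 1.2-fold in any comparison. Of all genes, 4.2% were past it for shear, 5.54% for the knockdown and 9.27% for Ift88 shRNA against static control. With only 5 genes, a count of none is near those shares. The 5 were Nudt21, Ogfod1 and Bbs2 on one side and Nup93 and Herpud1 on the other. Their shear ratios ran from -0.13 to 0.08 log2 and their knockdown ratios from -0.13 to 0.21, against -1.15 and 1.13 for Mt3. Bbs2, which encodes a subunit of the ciliary BBSome, had the highest knockdown ratio of the 5, at 1.12, 1.16 and 1.49 FPKM in the static control, sheared control and Ift88 shRNA libraries. The count of none holds on the (FPKM + 1) scale. On FPKM itself, Bbs2 was at 1.29 for the knockdown (1.001 to 1.65) and 1.33 for Ift88 shRNA against static control (1.04 to 1.72).

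**Figure D5:**
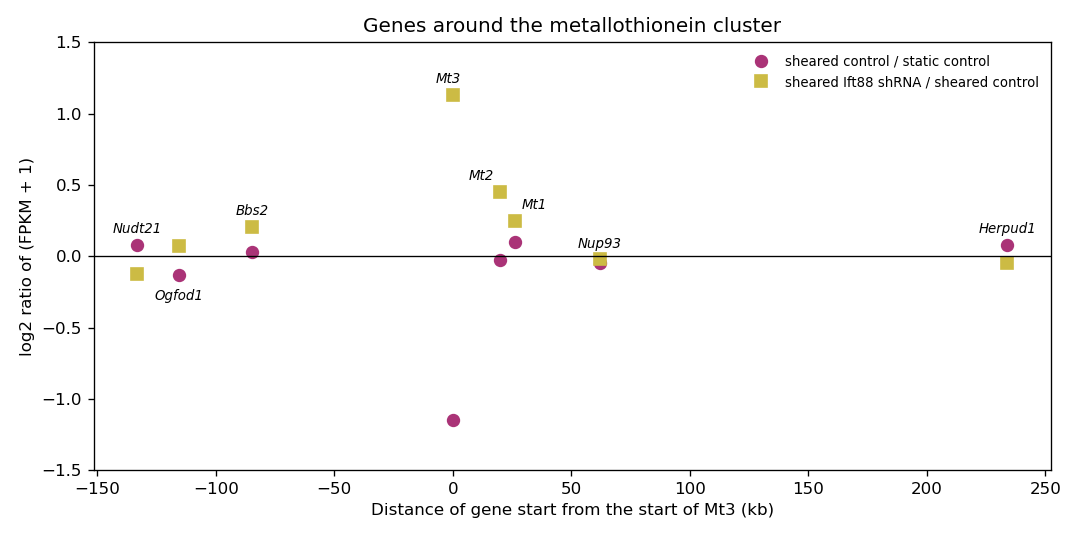
Log2 ratio of (FPKM + 1) in the shear and knockdown comparisons, against the distance of each gene's start from that of Mt3 in kilobases. The flanking genes lie between -0.13 and 0.21, Mt3 lies at -1.15 and 1.13, and Mt1 and Mt2 are above 0 in the knockdown comparison.

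Few genes shared the course of Mt3. Mt3 was chosen for that course, so these counts describe it and support nothing. Past 1.2-fold in both comparisons, 67 of 10358 genes (0.647%) were lower in the sheared control than in the other 2 libraries, and 32 (0.309%) were higher there. Past 2-fold in both, 3 genes were lower in the sheared control, namely Mt3, the small RNA gene Mir6244 and Gm4070. Mir6244 and Gm4070 were named after their values were seen.

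Likeness to Mt3 was measured as the distance between genes in the plane of the shear and knockdown log2 ratios, over 3 libraries and 10129 genes with a transcript over 500 bases. The nearest was Eif3j1, at a distance of 0.21, at 18.8, 8.26 and 16.7 FPKM in the static control, sheared control and Ift88 shRNA libraries. It has a near-identical copy, Eif3j2, and its value is uncertain for that reason. Next came the matrix protease gene Mmp9 (distance 0.33), at 70.3, 39.3 and 85.5 FPKM, and Cxcl2 (0.43), a chemokine gene that attracts neutrophils, at 2.53, 1.13 and 3.40 FPKM. Acp5 (0.57), the gene of tartrate-resistant acid phosphatase, was at 97.7, 52.9 and 83.0 FPKM, and Ctsk (0.61), the main collagenase of osteoclasts, at 29.4, 12.6 and 18.5. In the sheared control, the lowest library for each, Mmp9 rested on an estimated 4143 fragments, Acp5 on 2169, Ctsk on 588, Cxcl2 on 37 and Mt3 on 24. With so few fragments behind Mt3, the order of these distances is uncertain.

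Genes were also grouped by the number of metal response element cores in the 250 bases before their start. In the knockdown comparison, 3.36% of the 5538 genes with none were past 1.2-fold on the higher side and 2.08% on the lower side. The shares on the higher side were 2.56% of genes with 1 core and 2.76% with 2, and on the lower side 1.43% and 2.11%. Of the 160 genes with 3 cores, as at Mt2, 6 genes or 3.75% were past it on the higher side and 3.75% on the lower side. Mt2 itself is 1 of the 6 on the higher side, so that share is not independent of it. Of the 52 genes with 4 or more, 1 was past it in each direction. With Ift88 shRNA against static control, 4.69% of the genes with none were past 1.2-fold on the higher side and 4.57% on the lower side. With 1 core the shares were 4.34% on the higher side and 3.65% on the lower side, and with 2 cores 4.07% and 3.41%. Of those with 3 cores, 14 genes or 8.75% were past it on the higher side, Mt2 again among them, and 7 genes on the lower side. Of those with 4 or more, 2 were past it on the higher side and 3 on the lower side. Under shear, 1.86% of the genes with none were past it on the higher side and 2.44% on the lower side. Of those with 3 cores, 3 genes or 1.88% were past it on the higher side. Of those with 4 or more, 1 gene or 1.92% was. No gene of these last 2 groups was past it on the lower side, and the higher shares are near that of genes with none. Base composition differs between these groups, with a median of 58.4% G and C in the windows without a core and 65.8% in those with 3.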

How the data were processed

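RNA was measured by mRNA sequencing in 3 libraries, 1 for each group. The authors deposited 1 table of FPKM per gene, with gene IDs, symbols and RefSeq transcripts per the file headers. Tools listed in the submitters' processing notes are Cufflinks 2.2.1, TopHat2 2.0.13, Trimmomatic 0.32 and bcl2fastq 1.8.4, with the build mm10. The sources used here do not give settings or strand. Members were matched by symbol, and coordinates came from RefSeq (GRCm38.p6) by gene ID, matched for 23987 of 24067 genes.

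Ratios were log2 of (FPKM + 1), among genes with a mean of at least 1 FPKM. Library depth was read from the steps between low values in genes with 1 transcript of at least 1000 bases, with 1 mean fragment length of 190 bases for all libraries (180 to 200 when each was fitted alone). Of values up to 10 fragments, 62.8% to 64.1% were whole within 0.1, where 20% would be by uniform scatter, so fragments are estimates and no count model was used. Estimates were made for transcripts over 500 bases, whose lengths came from GENCODE M21. Intervals are 95% Clopper-Pearson and cover counting error only. The depth estimate and intervals were tested only on counts simulated from the model they assume. That does not test them on FPKM from Cufflinks, so the fragment estimates remain approximate. Work used Python 3.11.15, numpy 2.4.6, pandas 2.3.3 and scipy 1.17.1.

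The members and gene lists were chosen with earlier results of these data known. Genes named were the 7 members, zinc transporter, copper, glucocorticoid, heat shock and oxidative stress genes past 1.2-fold, the 5 nearest to Mt3, genes beside the cluster, up to 5 on each side, and Ift88. Of the neighbouring genes and lymphoid markers, 1 each is not reported here. Cell type markers were given by summed levels, with counts by direction for the osteoclast-lineage and macrophage lists. Those named singly are examples chosen after their values were seen. Others are marked as such. The listed symbol Adgre1 was matched by gene ID. Alternatives were pseudocounts of 0.1 and 5, no filter, a mean of at least 5 FPKM, equal FPKM totals, median-of-ratios scaling and genes with a transcript over 500 bases only.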

Additional observations from a re-analysis of the deposited data

How the results depend on the processing

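With 1 library in each group, no alternative can show the variation between cultures. Across the 7 alternatives, every member ratio past 1.2-fold kept its direction wherever the gene passed the filter, and no member ratio moved by more than 0.5 of the width of its counting interval on the log2 scale. Mt3 ran from -1.45 to -0.60 log2 for shear and from 0.60 to 1.44 for the knockdown, the smaller sizes with a pseudocount of 5. Mt2 ran from 0.44 to 0.49 for the knockdown and Mt1 from 0.23 to 0.28. With a mean of at least 5 FPKM, Mt3 and Mtf1 were left out, so 0 members were past 1.2-fold for shear and 1 for the knockdown. Of all genes under that filter, 2.94% were past it for shear and 4.13% for the knockdown. With equal FPKM totals 3 members were past it in the knockdown comparison, Mt1 being the added one, beside 6.23% of all genes. That scaling also moved the knockdown median over all genes from 0.010 to 0.039 log2. With median-of-ratios scaling 3 members were past it, Slc30a1 being the added one at -0.27, beside 5.50% of all genes. The median over all genes was then -0.0041. In the zinc transporter list, 1 gene was past 1.2-fold in the knockdown comparison under median-of-ratios scaling, beside the same 5.50% of all genes. Under a pseudocount of 0.1, 1 gene was past it for Ift88 shRNA against static control, beside 13.4% of all genes. The main analysis had 0 in both comparisons. The signs of Mtf1, Slc39a1 and Slc39a7 in the knockdown comparison, all near 0, each turned in 1 alternative. No paired analysis was possible because each group has 1 library. Depth limits Mt3, which rests on 24 estimated fragments in the sheared control.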
